A study of Mus musculus with 6 samples.

Results

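The genes that carry new proteins into the endoplasmic reticulum (ER), oxidise their cysteines and pack them into coated vesicles were compared between control and *Arid1b* mutant mouse incisors. Members were every gene of the deposited table whose name has the form *Sec*, *Ssr*, *Srp*, *Spcs* or *Pdia* with a number, or *Cop* with one of the coat subunit letters. The names gave 52 of 19270 genes. The rule uses names and no expression value, though it was set with earlier results of these data known. Of these, 47 act as described, and *Sec1*, *Sec14l1*, *Sec14l2*, *Sec14l4* and *Sec14l5* match by spelling alone.

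Bulk RNA-seq was made from mesenchyme of the proximal incisor, the growing end of the mouse front tooth, 4 days after tamoxifen in mice aged 1 month. The 3 mutant libraries came from *Gli1-CreER;Arid1b fl/fl* mice. In these, tamoxifen switches on a Cre recombinase driven by the *Gli1* locus and removes the floxed part of both *Arid1b* alleles. The 3 control libraries are labelled wild type, and the study's methods describe control mice as *Arid1b fl/fl* and given tamoxifen as well. *Gli1* marks a subset of cells, so a library holds recombined and other cells together, and fewer cells of a type cannot be told apart from less RNA per cell.

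A secreted or membrane protein is recognised as it leaves the ribosome by the signal recognition particle, which docks it at the Sec61 channel of the ER. The translocon associated protein complex assists its passage, and signal peptidase cuts off the signal sequence. Disulfide isomerases then join the right pairs of cysteines, the COPII coat packs folded cargo into vesicles bound for the Golgi, and the COPI coat returns escaped ER proteins. Cells that make much collagen, dentin or enamel matrix depend on this route, and in many cell types its genes are raised together by the unfolded protein response.

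All levels are the authors' group means of a normalised signal, each pooling 3 libraries. Values per gene and mouse were not analysed here, so the means carry no SD, and no replicate test was run. The p-values of the authors' own comparison were not used. Differences are log2 ratios of mutant mean over control mean. The third quartile of the signal was between 44.57 and 44.58 in all 6 libraries. If the lowest value in a library is worth 1 read, which is an inference, the libraries held between 37123643 and 49594469 reads on these genes. A counting SE of each log2 ratio was taken from those reads. It covers counting error only, not the spread between mice, and reads are not independent molecules. Genes with a mean over both groups of at least 10 were kept, which left 10311 genes and 47 of the members. A mean of 10 corresponds to between 378 and 523 reads per library.

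The targeted gene *Arid1b* was at 97.6 in the controls and at 38.0 in the mutants, which is 2.57-fold lower. *Gli1*, whose locus drives Cre in the mutants alone, was 106 in the controls and 46.1 in the mutants.

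The secretory machinery had nearly the same levels in both groups, and the disulfide isomerases stood below it. None of the 47 members was higher by over 1.5-fold, against 2.15% of all genes kept, and none was lower by over 1.5-fold, against 0.912%. None was higher by over 1.2-fold, against 6.54%. By contrast, 3 members were lower by over 1.2-fold, namely *Pdia6*, *Pdia4* and *Sec14l2*, of which *Pdia4*, at a log2 ratio of -0.23, no longer was when each group was divided by its sum. The 3 made up 6.38% of the members, a share near the 6.37% of all genes. Members within 1.1-fold, a margin chosen after the values were seen, numbered 39, or 83% against 69% of all genes. The median log2 ratio of the members was -0.01, with 21 higher and 26 lower, and the median over all genes was 0.00066. The median size of the log2 ratio, without its sign, was 0.043 for the members and 0.084 for all genes. Where the mean was at least 100 and counting error is smaller, 18 of 22 members and 70.5% of 2057 genes were within 1.1-fold. The counting error was of a size with many of these ratios, since 20 of the 47 lay within 1.96 counting SE of 0.

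**Figure D1:**
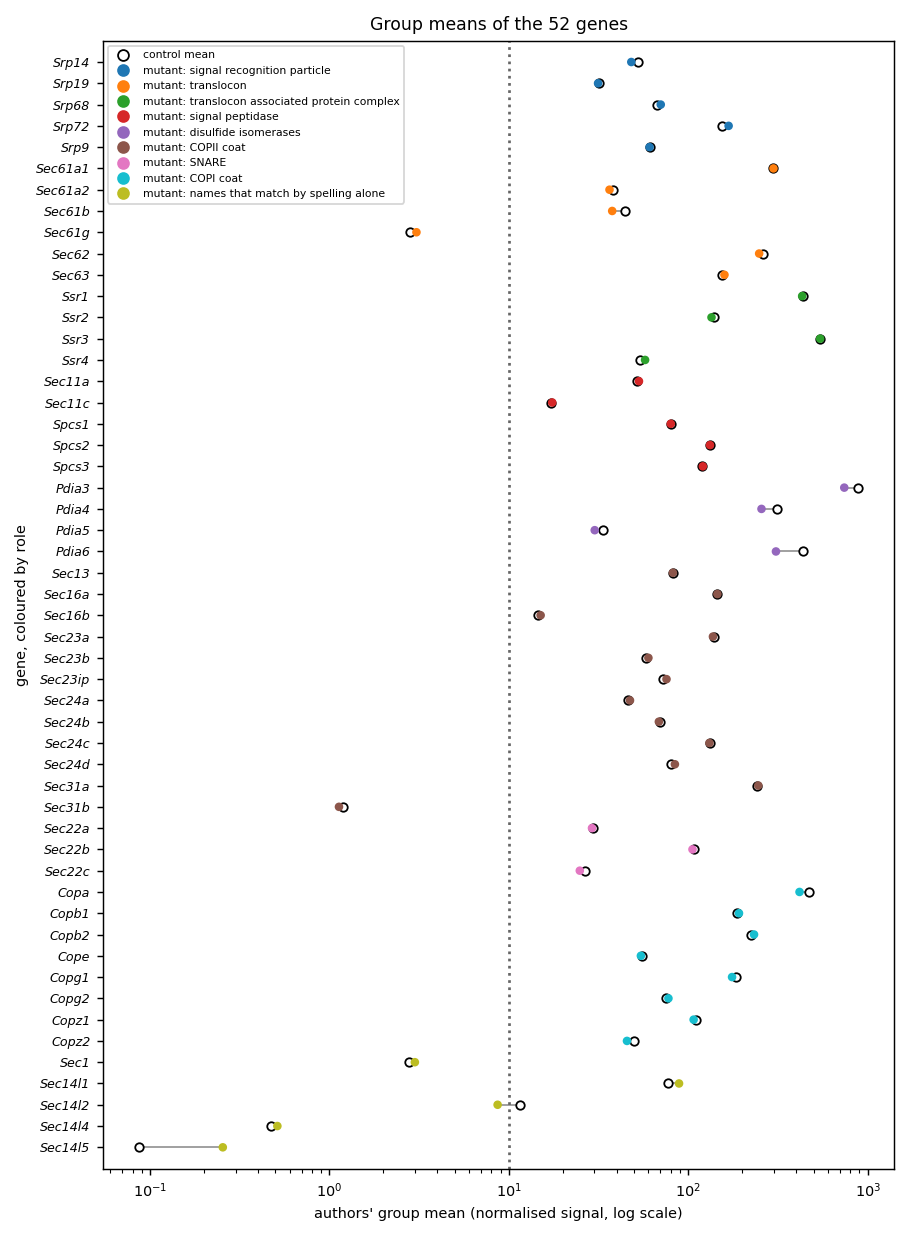
Authors' group means of the 52 genes on a log scale of normalised signal, with open points for the controls and points coloured by role for the mutants. Each is the mean of 3 libraries with no error available. The dotted line is the mean of 10 used as a filter. Most pairs overlap, and the 4 *Pdia* genes show mutant points to the left of the control points.

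The 4 disulfide isomerases were all lower in the mutants, as were the 3 *Sec22* genes, and no other role group had every gene lower. The median log2 ratio of the isomerases was -0.28, and none of the 4 was within 1.1-fold. *Pdia6* (ENSMUSG00000020571, chr12:17266545-17284770) encodes an isomerase that also acts on stress sensors of the ER. Its mean was 436 in the controls and 308 in the mutants, a log2 ratio of -0.50 with a counting SE of 0.0096. *Pdia4* (chr6:47796141-47813430) encodes an isomerase with several thioredoxin-like domains. Its mean was 314 in the controls and 256 in the mutants, a log2 ratio of -0.29. *Pdia3* (chr2:121413775-121438687) encodes the partner of the lectin chaperones calnexin and calreticulin, and it folds glycoproteins. Its mean was 889 in the controls and 741 in the mutants, a log2 ratio of -0.26 that falls just short of the 1.2-fold margin. *Pdia5* (chr16:35397312-35490873), which acts on the stress sensor ATF6, was the scarcest, at 33.3 in the controls and 30.1 in the mutants (-0.15). The order of these 4 by size of difference was therefore *Pdia6*, *Pdia4*, *Pdia3* and *Pdia5*. The ratio of *Pdia6* lay further from that of *Pdia4* than their counting errors. The ratios of *Pdia4* and *Pdia3* were close. At means of at least 100, 8.60% of genes were lower by over 1.2-fold, a background that holds *Pdia6* and *Pdia4* as 2 of the 22 members at such levels.

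Promoters of the isomerases are shown because stress-responsive ER genes are known for an element in which CCAAT and CCACG stand 9 bases apart. The windows are RefSeq promoters on GRCm38.p6, 250 bases before to 50 after each start, matched for 45 of the 52 members. The element was searched on both strands and was found in 1 member, *Pdia6*, beginning 98 bases before its start, and in 0.119% of 32851 promoters, or 0.137% of their genes. Capitals mark each CCAAT and CCACG on either strand, so ATTGG and CGTGG are marked as their reverse complements. The stretches stop where either annotation places the start of the gene, and run from 5′ to 3′ on the strand of the gene.
*Pdia6*, plus strand, chr12:17266339-17266544: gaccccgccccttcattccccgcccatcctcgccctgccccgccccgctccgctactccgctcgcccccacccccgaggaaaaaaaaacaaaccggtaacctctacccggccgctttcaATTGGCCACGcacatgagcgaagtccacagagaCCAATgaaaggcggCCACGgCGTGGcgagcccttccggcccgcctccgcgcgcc
*Pdia4*, minus strand, chr6:47813513-47813762: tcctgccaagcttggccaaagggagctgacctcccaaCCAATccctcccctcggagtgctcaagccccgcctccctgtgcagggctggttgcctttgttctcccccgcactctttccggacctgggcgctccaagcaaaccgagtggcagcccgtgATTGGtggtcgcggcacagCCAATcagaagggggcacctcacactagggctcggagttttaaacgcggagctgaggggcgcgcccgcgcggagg

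The full window of *Pdia6* held CCAAT in 2 places and CCACG in 4. That of *Pdia4* held CCAAT in 3 places and CCACG in 1, and that of *Pdia3* held CCAAT in 2 places and CCACG in none. CCAAT alone was in 37.4% of all promoters and CCACG alone in 32.8%. A second stress element, ATTGG and CCACG with 1 base between, was in none of the members and in 0.0365% of promoters. In the *Pdia6* stretch, ATTGG and CCACG touch with no base between them. The letters TGATG, any base and AAT, searched for the amino acid response, were in none of the members and in 0.965% of promoters. These matches are descriptions of letters and not of binding.

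**Figure D2:**
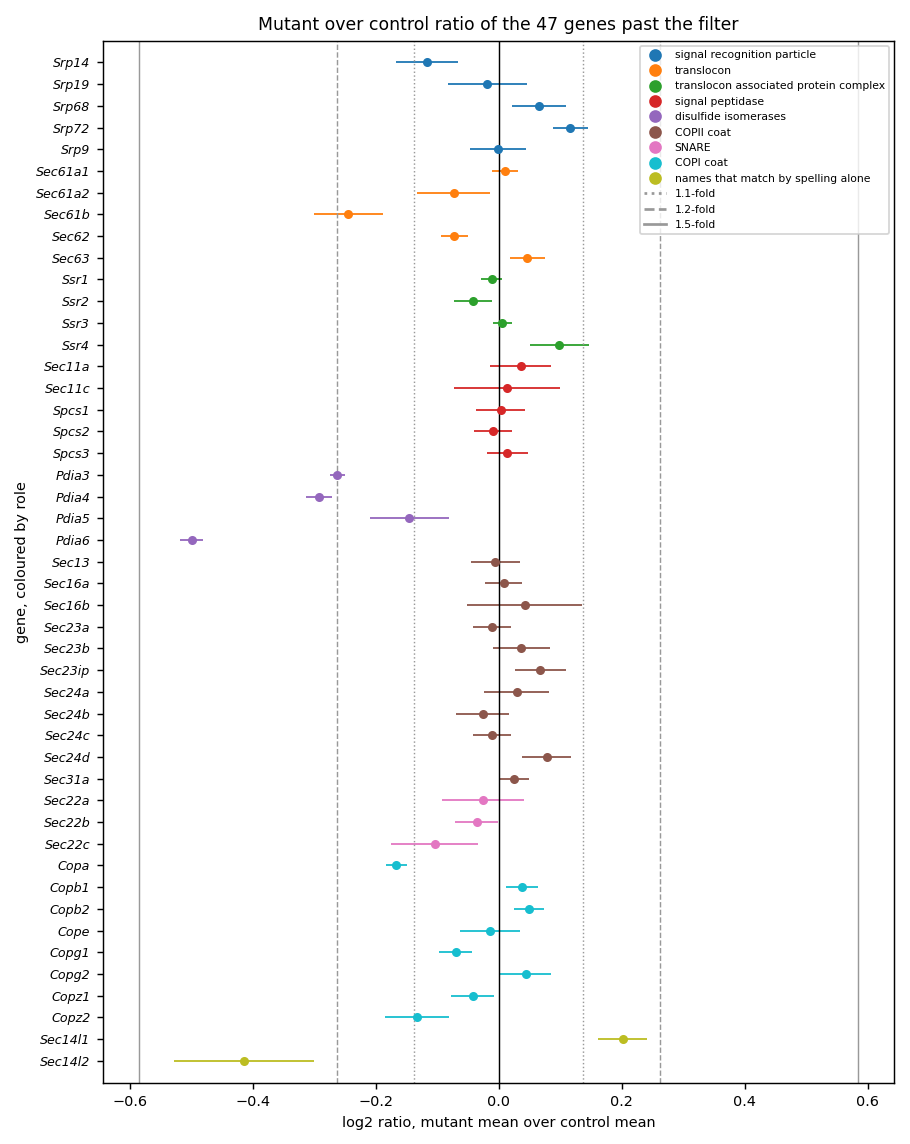
Log2 ratio of mutant mean over control mean for the 47 members past the filter, coloured by role, with bars of 1.96 counting SE that do not include the spread between mice. Dotted, dashed and solid lines mark 1.1-fold, 1.2-fold and 1.5-fold. *Pdia6* at -0.50 is the lowest and *Sec14l1* at 0.20 the highest.

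The signal recognition particle was represented by 5 genes, all within 1.1-fold, with a median log2 ratio of -0.0008. *Srp72* and *Srp68* encode the pair of large proteins that bind one another on the particle's RNA. *Srp72* was 155 in the controls against 168 in the mutants (0.12), and *Srp68* was 67.2 in the controls and 70.3 in the mutants (0.07). *Srp14* and *Srp9* encode the pair that pauses translation. *Srp14* was 52.2 in the controls against 48.2 in the mutants (-0.12), and *Srp9* was 60.9 in both. Of the 50-base stretches of *Srp9*, 15.5% also occur in *Gm13736*, so its level is uncertain. *Srp19*, an assembly factor of the particle, was 31.9 and 31.5 in the same order (-0.02). The names do not cover the signal-binding subunit, whose mouse copies *Srp54a*, *Srp54b* and *Srp54c* are in a list given further on.

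At the channel, *Sec61a1* had nearly the same level in both groups, and the median log2 ratio of the 5 kept translocon genes was -0.07. *Sec61a1*, the pore-forming subunit of Sec61, was 297 in the controls and 299 in the mutants (0.01). Its paralog *Sec61a2* was 38.3 in the controls and 36.4 in the mutants (-0.07). The exons of *Sec61a2* overlap those of *Nudt5* on the other strand over up to 909 bases. *Sec62* and *Sec63*, which help the channel take short or slow substrates, were 261 and 154 in the controls and 249 and 159 in the mutants (-0.07 and 0.05). *Sec61b* (chr4:47474658-47483242), the small beta subunit, stood apart at 44.7 in the controls and 37.7 in the mutants, a log2 ratio of -0.24 and the lowest of the translocon. Of its 50-base stretches, 41.0% also occur in other genes of the GENCODE vM21 annotation, so its level depends on how shared reads were assigned, and it is uncertain. The gamma subunit *Sec61g* was below the filter, at 2.82 in the controls and 3.06 in the mutants. It shares 20.5% of its stretches with other genes, most with *Gm10177*, listed at 51.6 in the controls and 44.2 in the mutants. The level of *Sec61g* is therefore uncertain as well.

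The 4 genes of the translocon associated protein complex were within 1.1-fold. *Ssr3* was 541 in the controls against 544 in the mutants (0.01), and *Ssr1* was 435 and 432 (-0.01). *Ssr2* was 139 in the controls against 135 in the mutants (-0.04), and *Ssr4* was 53.7 and 57.5 (0.10). *Ssr2* was thus the lowest and *Ssr4* the highest of the group.

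Signal peptidase had the narrowest range of the role groups, with log2 ratios from -0.01 to 0.04. The catalytic subunits *Sec11a* and *Sec11c* were 51.9 and 17.3 in the controls and 53.2 and 17.5 in the mutants. The accessory subunits *Spcs1*, *Spcs2* and *Spcs3* were 79.8, 133 and 119 in the controls and 80.0, 132 and 121 in the mutants. Every one of these 5 ratios was within 1.96 counting SE of 0.

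All 11 COPII genes past the filter were within 1.1-fold, with a median log2 ratio of 0.03. In the inner coat, *Sec23a* was 138 in the controls against 137 in the mutants (-0.01), and *Sec23b* was 58.5 and 60.0 (0.04). Of the cargo-binding subunits, *Sec24c* was 132 in the controls against 131 in the mutants (-0.01), and *Sec24d*, 79.9 and 84.3 (0.08), had the highest ratio of the coat. *Sec24b* was 69.9 in the controls against 68.6 in the mutants (-0.03), and *Sec24a* was 46.4 and 47.4 (0.03). In the outer coat, *Sec31a* was 242 in the controls against 246 in the mutants (0.03), and *Sec13*, whose product is shared with the nuclear pore, was 82.5 and 82.2 (-0.01). The scaffolds of ER exit sites *Sec16a* and *Sec16b* were 145 and 14.6 in the controls and 145 and 15.1 in the mutants. *Sec23ip*, which binds the inner coat, was 72.2 in the controls and 75.7 in the mutants (0.07). *Sec31b* was below the filter at 1.18 in the controls and 1.13 in the mutants. The 3 *Sec22* genes, named for a SNARE that fuses vesicles between ER and Golgi, were all slightly lower, though 2 of them turned slightly higher when each group was divided by its sum. *Sec22b* was 108 in the controls and 106 in the mutants (-0.04), *Sec22a* was 29.6 and 29.1 (-0.03), and *Sec22c* was 26.7 and 24.9 (-0.10).

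COPI, the retrieval coat, had 7 of 8 genes within 1.1-fold and a median log2 ratio of -0.03. The exception was *Copa* (chr1:172082529-172122330), which encodes the alpha subunit that binds the retrieval signal of cargo. Its mean was 468 in the controls and 417 in the mutants, a log2 ratio of -0.17 with a counting SE of 0.0087. The beta subunits *Copb1* and *Copb2* were 187 and 225 in the controls and 192 and 233 in the mutants (0.04 and 0.05). *Copg1* was 184 in the controls against 176 in the mutants (-0.07), and its paralog *Copg2* was 75.3 and 77.6 (0.04). *Copz1* was 110 in the controls and 107 in the mutants (-0.04), *Copz2* was 49.97 and 45.6 (-0.13), and *Cope* was 55.0 and 54.5 (-0.01). *Copa* was therefore lower while the beta subunits of the same coat were slightly higher. Exons of *Copg2* overlap the highly transcribed gene *Mest* on the other strand over up to 2730 bases, and those of *Copa* overlap *Ncstn* over up to 195 bases. Whether reads were counted by strand is not given in the sources used here, so *Copg2* and *Sec61a2* are uncertain. In all, 17 of the 52 members had an exonic overlap with another gene, and *Pdia6* overlaps *Atp6v1c2* over up to 193 bases.

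Stretches that hold TGACGTG, letters known from ER stress genes, are shown for the 5 coat genes that had them. They are 5 of the 45 members matched, or 11.1%, and the letters were in a promoter of 2.22% of all genes. The letters are in capitals, written CACGTCA where they lie on the opposite strand, and coordinates are on GRCm38.p6.
*Copb1*, minus strand, chr7:114254691-114254717: cgcccccttcCACGTCAgccaaggact
*Copb2*, plus strand, chr9:98563715-98563741: ccggaagttcCACGTCAgtgggttggc
*Sec16b*, plus strand, chr1:157506742-157506768: tctgtgtggcTGACGTGgcacggcagt
*Sec23a*, minus strand, chr12:59011995-59012021: tcctccccttTGACGTGgcagaggcgg
*Sec24d*, plus strand, chr3:123267460-123267486: cccgggcgccTGACGTGgcactagcaa

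The log2 ratios of these 5 genes were between -0.01 and 0.08, so all of them stood within 1.1-fold.

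Among the names that match by spelling alone, 2 passed the filter and went opposite ways. *Sec14l1* and *Sec14l2* encode lipid-binding proteins related to yeast Sec14. *Sec14l1* was 77.3 in the controls and 88.9 in the mutants (0.20), the highest ratio of any member past the filter. *Sec14l2* (chr11:4097039-4123415) was 11.5 in the controls and 8.67 in the mutants (-0.41), near the filter, with a counting SE of 0.058. *Sec1*, a fucosyltransferase-like gene, was 2.78 in the controls and 3.00 in the mutants. *Sec14l4* was 0.472 in the controls and 0.513 in the mutants. *Sec14l5* was 0.0868 in the controls and 0.255 in the mutants, about 7 and 31 reads over 3 libraries each, and it was the only member past 1.5-fold before filtering. Without these names and the isomerases, 39 of 41 members, or 95.1%, were within 1.1-fold, and the exceptions were *Sec61b* and *Copa*.

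**Figure D3:**
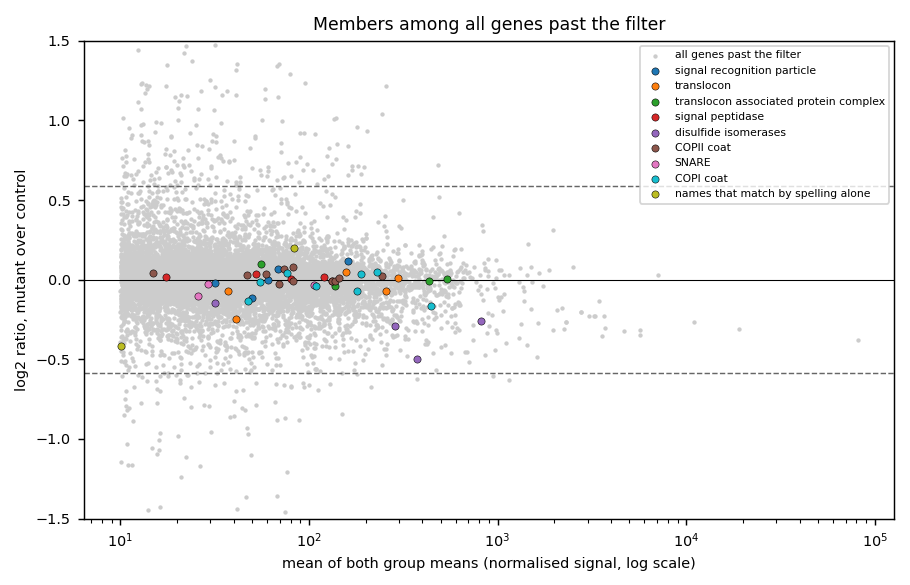
Log2 ratio against the mean of both group means on a log scale, with all 10311 genes past the filter in grey and the 47 members coloured by role. Dashed lines mark 1.5-fold, and 35 genes beyond 1.5 on the log2 scale are not drawn. No member crosses the dashed lines, and the 4 purple isomerases all lie below 0.

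Levels of different genes were compared per kilobase of exon, on the GENCODE vM21 gene models of GRCm38, to which all 52 names matched. The normalization is not given, so these levels and the paralog shares assume a signal not already scaled by gene length. In the controls *Pdia3* was highest at 321 per kilobase, followed by *Pdia6* at 200, *Ssr3* at 138, *Pdia4* at 131, *Ssr2* at 107, *Copa* at 101 and *Sec61a1* at 93.5. The first 5 kept their order in the mutants, where *Pdia3* was at 268, *Pdia6* at 142, *Ssr3* at 139, *Pdia4* at 107 and *Ssr2* at 104. That order rests on summed exon length, since by the longest transcript *Ssr3* was at 183 and *Pdia6* at 200.4 in the controls, and at 184 and 142 in the mutants. The median per kilobase in the controls was 45.7 for the translocon, 42.7 for the signal recognition particle, 49.5 for COPI and 18.2 for COPII. *Sec14l5* was lowest at 0.0151. In 47 members, Spearman's rho between the control level and the log2 ratio was -0.01, and over all genes kept it was -0.16. Both are descriptions across genes, which are not independent and which share the same libraries.

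Paralogs of 1 family were expressed in shares that hardly differed between the groups. Of the summed level per kilobase of the Sec61 alpha pair, *Sec61a1* made up 86.1% in the controls and 86.8% in the mutants. *Sec31a* made up 99.5% of its pair in both. *Sec16a* was 84.2% of its pair in the controls against 83.9% in the mutants, and *Sec22b* was 70.8% and 71.1% of its family. Among the *Sec24* genes in the controls, *Sec24c* was 41.9%, *Sec24d* 28.6%, *Sec24b* 19.6% and *Sec24a* 9.93%, and *Sec24d* reached 29.9% in the mutants. *Sec23a* was 61.5% of its pair in the controls against 60.8% in the mutants, and *Sec11a* was 60.2% and 60.6%. *Copz2* was 54.3% in the controls and 52.8% in the mutants. The share of *Copg1* differed most, at 67.7% in the controls against 65.9% in the mutants, and it rests on the uncertain level of *Copg2*.

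**Figure D4:**
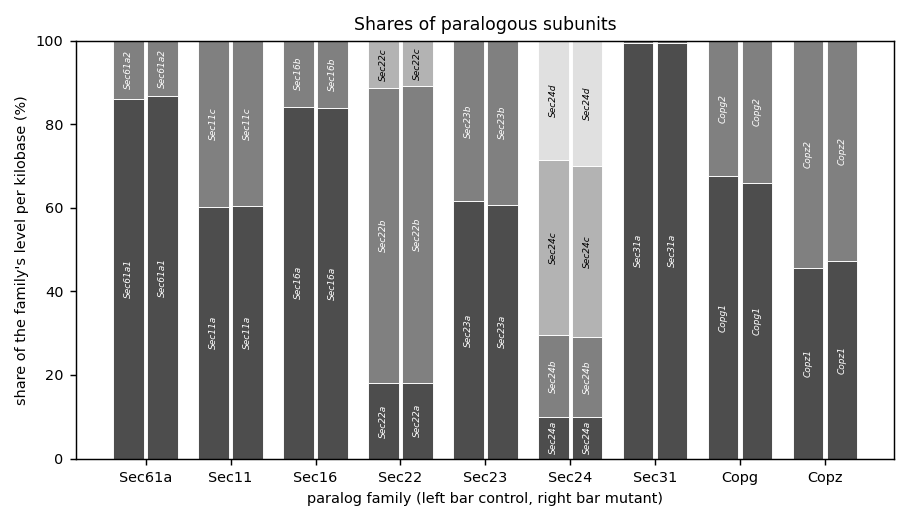
Share of each paralog in the summed level per kilobase of its family, in percent, with the control bar on the left and the mutant bar on the right of each family. Each bar is from authors' means of 3 libraries, with no error available. Bars of 1 family look alike in both groups, and the share of *Copg1* moves from 67.7% to 65.9%.

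Genes that work beside the members were described through lists of neighbouring pathways. A list of 10 kept genes covered the signal-binding subunit of the signal recognition particle, the particle's receptor and helpers of the channel. Of these, 8 were lower and the median log2 ratio was -0.11, or -0.05 when each group was divided by its sum. Among the lower genes, *Srpr* and *Srp54c*, both at -0.01, were within 1.96 counting SE of 0. *Srp54b* was lowest, at 18.5 in the controls against 14.5 in the mutants (-0.35), and *Tram1l1* highest, at 12.02 and 13.01 (0.11). *Srp54a* was 133 in the controls against 114 in the mutants (-0.21), and *Srp54c* was 84.2 and 83.7. These copies resemble one another, so their separate levels are uncertain. Of the 12 genes of the oligosaccharyltransferase, which attaches sugars to entering proteins, 9 were lower, with a median of -0.05 that turned to 0.0073 when each group was divided by its sum. *Magt1* was lowest, at 155 in the controls against 129 in the mutants (-0.27), and *Tusc3* highest, at 80.6 and 82.9 (0.04).

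The routes for membrane proteins had medians near 0. All 9 kept genes of the ER membrane complex were within 1.1-fold, from *Emc10* (-0.05) to *Emc4* (0.09), with a median of 0.02. All 6 of the tail anchor pathway were within 1.1-fold too, from *Ubl4a* (-0.11) to *Get1* (0.07), with a median of 0.01. Among 19 COPII accessory proteins and cargo adaptors, 16 were within 1.1-fold, the median was 0.01, and the ends were *Creb3l2* (-0.14) and *Surf4* (0.17). All 22 COPI accessory genes were within 1.1-fold, with a median of -0.01 that turned to 0.052 when each group was divided by its sum, from *Arf5* (-0.13) to *Arf3* (0.09). *Arcn1*, the COPI delta subunit that the names do not cover, was 361 in the controls and 367 in the mutants (0.02).

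Other thiol oxidoreductases had a median nearer 0 than the *Pdia* genes. It was -0.05 over 14 genes, of which 9 were lower, and turned to 0.0057 when each group was divided by its sum. *P4hb*, the archetypal protein disulfide isomerase and a subunit of collagen prolyl hydroxylase, was 839 in the controls and 788 in the mutants (-0.09). *Ero1lb*, which reoxidises isomerases, was lowest, at 15.5 in the controls and 12.9 in the mutants (-0.27). *Txndc11* was highest, at 38.2 in the controls and 44.9 in the mutants (0.24).

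Chaperones and unfolded protein response genes went in both directions. Of 20 kept genes, 6 were higher and 14 lower, with a median of -0.04 that turned to 0.022 when each group was divided by its sum. The lectin chaperone *Calr* was lowest, at 1117 in the controls and 823 in the mutants (-0.44). *Hsp90b1*, the ER form of HSP90, was 1267 in the controls against 961 in the mutants (-0.40), and *Sdf2l1*, an ER chaperone cofactor, was 22.7 and 17.4 (-0.39). *Ern1*, which encodes the stress sensor IRE1, was highest, at 40.1 in the controls and 54.1 in the mutants (0.43). *Dnajb9* was 43.5 in the controls against 56.0 in the mutants (0.36), and *Xbp1*, the transcription factor activated by IRE1, was 106 and 126 (0.25). *Hspa5*, the ER form of HSP70 and a common readout of stress, was 768 in the controls and 761 in the mutants (-0.01). Beside the ends of the list, *Hsp90b1*, *Sdf2l1*, *Dnajb9*, *Xbp1* and *Hspa5* were chosen after their values were seen.

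Ratios of the cargo lay further from 0 than those of the machinery. Of 14 matrix genes of mesenchyme, 12 were lower, with a median log2 ratio of -0.30. *Fbn1*, which encodes fibrillin, was lowest, at 827 in the controls against 578 in the mutants (-0.52), and *Postn* was highest, at 264 and 333 (0.33). *Col1a1*, the main collagen chain of bone and dentin, was 21211 in the controls and 17127 in the mutants (-0.31). Of 21 collagen crosslinking and folding enzymes, 19 were lower, with a median of -0.21. *P3h2* was lowest, at 21.6 in the controls and 14.4 in the mutants (-0.59). It was barely past 1.5-fold, by less than its counting SE of 0.044. *Loxl2* was highest, at 59.5 in the controls and 82.9 in the mutants (0.48). *Serpinh1*, the collagen chaperone, was 1626 in the controls and 1222 in the mutants (-0.41). Dentin cargo had ends at *Dmp1*, 68.1 in the controls against 23.7 in the mutants (-1.52), and *Spp1*, 38.9 and 99.2 (1.35), with a median of -0.27 over 5 genes.

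Enamel matrix cargo, secreted by the epithelium, was far higher in the mutants. *Enam* was 136 in the controls against 1983 in the mutants (3.87), and *Amelx* was 362 and 3946 (3.45). *Ambn* was 617 in the controls against 3360 in the mutants (2.44), and *Mmp20* was lowest of the 4 kept genes, at 236 and 285 (0.27). No member of the secretory machinery was higher by over 1.2-fold beside these differences.

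**Figure D5:**
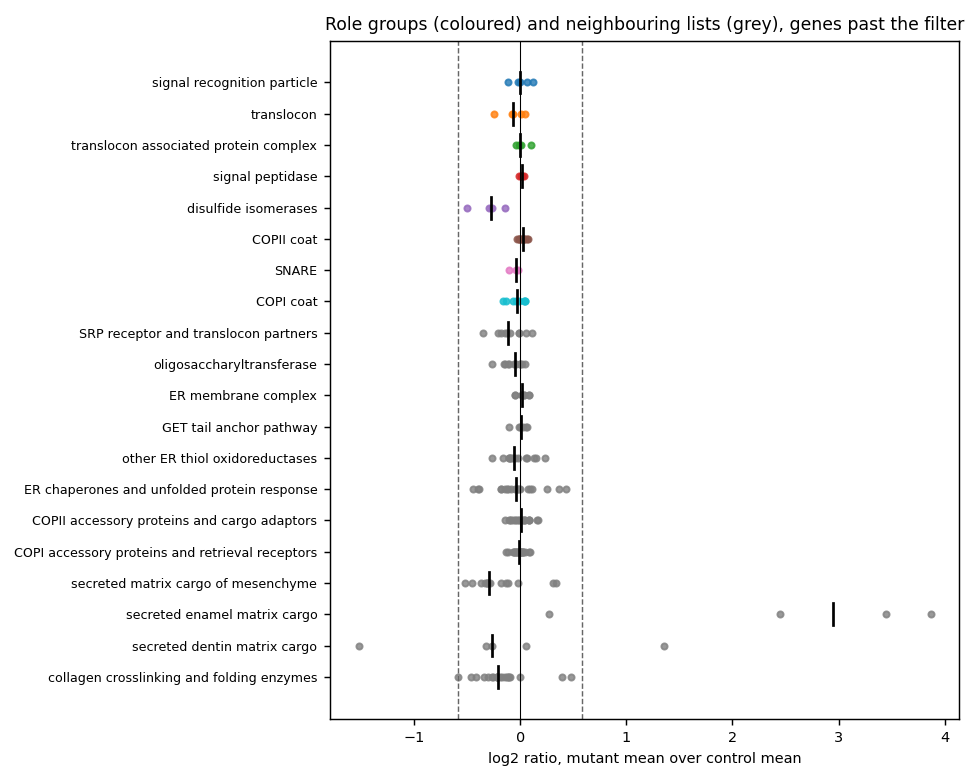
Log2 ratio of mutant mean over control mean for each kept gene of the 8 role groups (coloured) and of 12 neighbouring lists (grey), with a black bar at each median and dashed lines at 1.5-fold. Coat and translocation groups sit around 0. The isomerases, at a median of -0.28, sit near mesenchymal matrix cargo at -0.30, and enamel cargo reaches 3.87.

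Markers of other cells differed between the groups, and their part in these results was not tested. All 8 dental epithelium markers were higher in the mutants, with summed means of 805 for the controls and 1453 for the mutants. All 6 osteoblast and odontoblast markers were lower, with sums of 7095 for the controls and 5742 for the mutants. Most of the sum was *Dspp*, at 5179 in the controls and 4136 in the mutants. The 2 dentin cargo genes outside this list, *Spp1* (1.35) and *Ibsp* (0.06), were higher, as was *Runx2* (0.24), listed with the mesenchyme. The 8 erythroid and neutrophil markers summed to 82.5 in the controls and 36.8 in the mutants. The 6 endothelial markers summed to 317 and 320, the 6 macrophage markers to 330 and 350, and the 5 perivascular markers to 632 and 572, controls first. The 8 dental mesenchyme markers summed to 2922 in the controls and 2743 in the mutants, with *Vim* the largest part, and they did not move together. *Gli1*, whose locus drives Cre in the mutants alone, was 2.31-fold lower, and the part of the Cre allele was not tested. *Sfrp2* was 1.65-fold higher and *Igfbp6*, at 6.05 and 9.60 below the filter, 1.59-fold higher. Of the 5 osteoclast markers, 4 were higher, and the sum was 102 in the controls and 121 in the mutants. Only 3 of the 5 passed the filter, 2 higher and 1 lower. *Ocstamp* was 0.0945 in the controls against 0.154 in the mutants, and *Dcstamp* was 0.0924 and 0.192, near 0 in both. *Acp5* was 12.9 in the controls and 28.1 in the mutants, *Mmp9* was 9.25 and 16.9, and *Ctsk*, the most abundant, was 79.4 and 76.0. Plasma cells make much ER, and 4 of the 5 B and plasma cell markers listed were higher in the mutants. Only 2 of the 5 passed the filter, 1 higher and 1 lower, and 50.3% of all genes kept were higher. *Cd79a* was 0.304 in the controls against 0.352 in the mutants, and *Cd79b* was 0.829 and 0.913. *Jchain* was 0.189 in the controls and 0.259 in the mutants, near 0 in both. *Ighm* was 10.7 in the controls and 12.4 in the mutants. The 5 summed to 355 in the controls and 354 in the mutants, most of it from *Sdc1*, which epithelia also express.

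Another scaling moved all ratios alike. When the means of each group were divided by their sum over all genes, every log2 ratio moved up by 0.06, as did the median of all genes. The share of members higher in the mutants was then 72.3% in place of 44.7%, and 69.5% of all genes were higher. The isomerases stayed lower under this scaling, but only *Pdia6* and *Sec14l2* were then lower by over 1.2-fold.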

How the data were processed

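RNA of 6 proximal incisor samples, 3 control and 3 mutant, was sequenced. How many mice or incisors each sample held is not given in the sources used here. The submitters' processing notes name TopHat2 2.0.8 and mm10, and the study's methods name trimming, alignment to mm10 and Partek Flow. The read counter, annotation and normalization are not given in the sources used here. The authors deposited a mean signal per gene and group, a summary of the signal per library, and a p-value, step-up FDR, ratio and fold change of mutant against control. Those comparison columns were not used. Each deposited group mean equalled the mean over its 3 libraries of the summaries, checked on the overall mean and on the lowest value. Groups followed the labels.

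From the means, log2 ratios were computed without a pseudocount, for genes with a mean over both groups of at least 10. Past 1.5-fold, the fold of the study's methods, or 1.2-fold counted as called. No test across mice was run on these group means, and no p-value is given. Gene models were GENCODE vM21 on GRCm38, to which 52 of 52 member names and 227 of 229 listed names matched, and promoters were from RefSeq on GRCm38.p6. Shared sequence was searched in stretches of 50 bases. Protein sequences were not used here. The members and lists were chosen with earlier results of these data known. Named genes are every member, and from each neighbouring list its ends and genes past 1.5-fold. Others were named after their values were seen. Intervals of medians are binomial intervals over genes at a nominal 95%. For groups of at most 5 kept genes they run from the lowest to the highest ratio and cover less than 95%. Calculations were tested on simulated data. Alternatives were other filters, scalings, a pseudocount of 1, means in place of medians, and fewer members. Tables were handled in pandas 2.3.3 and numpy 2.4.6 under Python 3.11.15, intervals came from scipy 1.17.1, and figures from matplotlib 3.10.9.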

Additional observations from a re-analysis of the deposited data

How the results depend on the processing

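No paired analysis was possible because the tables hold group means and no value per gene and library, and leaving out a library was not run for the same reason. Without the filter, 1 member was higher by over 1.5-fold and 1 by over 1.2-fold, in both cases *Sec14l5*. With a mean of at least 100, 18 of 22 members were within 1.1-fold, since fewer genes were counted. Dividing each group by its sum moved the median of the members to 0.051, the share higher to 72.3%, signal peptidase to 0.075, COPII to 0.086 and the SNARE group to 0.025. The mean over members was -0.039 in place of the median of -0.009. Without the isomerases, an alternative added after the data were seen, 1 member was lower by over 1.2-fold. Of the 52 single log2 ratios, 40 moved by more than 1.96 counting SE when the groups were divided by their sums, and 13 changed sign, none of them past 1.2-fold. Centring on the median of all genes moved none of the 52. No other count, share or role group median of the report moved beyond its margin under the alternatives tried. In every role group but COPII that margin ran from the lowest to the highest ratio. A mean over members, or a median over fewer of them, could not leave it. Role medians near 0 changed sign in 4 of 9 groups after that division and in 3 of 8 at means of at least 100, whereas the isomerases were lower under each alternative that held them. The differences were not set against the spread between mice.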
